A study of Mus musculus with 2 samples.

Results

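Cytosolic ribosomal proteins are the proteins of the large and small subunits of the ribosome that works in the cytoplasm. Their genes were chosen by name: every gene on the array whose symbol had the form Rpl or Rps with a number and at most 1 closing letter a, l or x, together with Rplp0, Rplp1, Rplp2 and Rpsa. This gave 78 genes, 46 of the large and 32 of the small subunit, of 21502 genes on the array. Rplp0 and Rpsa stood in the files under their older symbols, Arbp and Lamr1. The set holds the paralogs Rpl3l and Rps27l, while Rpl34 and Rpl39l were listed under clone names and were not among the 78.

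The samples were mouse hypothalamus RNA from animals on a control diet or on feed with 0.5% bezafibrate, a fibrate drug that activates PPAR nuclear receptors, and the series asked what such an agonist does to hypothalamic transcripts. A block of brain holding the hypothalamus was taken at ZT10 or at ZT22 (zeitgeber time counts hours from lights on). Each of the 4 groups (control ZT10, bezafibrate ZT10, control ZT22 and bezafibrate ZT22) was 1 pool of equal RNA amounts from 4 mice on 1 one-colour array, and there were no replicate pools. Treated mice started at 8 weeks of age, had 2 weeks of normal diet, 2 weeks of bezafibrate and then 5 weeks back on normal diet. The labels do not say at which stage of that schedule the tissue was taken, and they name no strain, sex or genotype.

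Every ribosome carries 1 copy of most of these proteins, and their mRNAs are among the most abundant in nearly all cells. Most of the mRNAs begin with a 5′ terminal oligopyrimidine (TOP) tract, a C followed by a run of pyrimidines at the transcription start, through which nutrient signalling by mTORC1 sets their translation together. In neurons they supply the ribosomes of the cell body and, in part, of dendrites and axons. PPARα, the receptor of fibrates, is best known as a regulator of fatty acid oxidation in liver.

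Start-site windows are shown for 6 of the genes because the results below turn on them: Rps24 and Rps23 had the highest diet ratios at ZT22, Rps6 and Rpl15 had ratios near 0 there, Rplp2 is a stalk protein, and Rpl14 was among the genes that departed from the rest. Each runs from 40 bases before to 20 bases after the annotated start, 5′ to 3′ on the gene's strand, from RefSeq on GRCm38.p6. Capitals mark the longest run of C and T that begins with C, has at least 5 bases and starts within 10 bases of the annotated start. All 6 windows hold such a run, which 24 of the 58 genes with a RefSeq window lacked. Rps24 has another annotated start, not shown, whose window holds none.
Rps24 (chr14:24490638-24490697, plus strand): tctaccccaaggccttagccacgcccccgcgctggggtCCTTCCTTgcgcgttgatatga
Rps23 (chr13:90923082-90923141, plus strand): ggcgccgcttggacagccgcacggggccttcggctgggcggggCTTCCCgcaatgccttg
Rplp2 (chr7:141447611-141447670, plus strand): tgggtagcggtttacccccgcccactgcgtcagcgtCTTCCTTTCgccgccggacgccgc
Rps6 (chr4:86857348-86857407, minus strand): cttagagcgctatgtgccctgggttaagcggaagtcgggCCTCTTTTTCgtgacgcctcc
Rpl15 (chr14:18270967-18271026, minus strand): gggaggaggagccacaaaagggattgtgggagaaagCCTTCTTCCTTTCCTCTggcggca
Rpl14 (chr9:120571477-120571536, plus strand): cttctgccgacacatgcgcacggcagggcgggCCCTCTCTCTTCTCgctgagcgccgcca

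RefSeq windows were matched for 58 of the 78 genes, with 69 annotated starts. A run as defined above was present at 49.3% of these 69 starts and at 29.0% of all 32851 promoters in the table. The letters CGGAAG, which hold the core recognised by ETS factors, occurred on either strand in 60.9% of the 69 promoters of 300 bases and in 16.9% of all of them. The letters TATAAA occurred in 8.70% against 13.6%, again on either strand. CTTTCC, a stretch common in TOP tracts, which can overlap the run, occurred in 49.3% against 26.6%. It too was counted on either strand and anywhere in the 300 bases, so the count is not confined to TOP tracts. These counts describe letters in the windows and no binding or start-site use in these samples.

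All 4 arrays were on 1 slide, with control ZT22 at position 1, control ZT10 at 2, bezafibrate ZT22 at 3 and bezafibrate ZT10 at 4, so diet cannot be told apart from position on the slide. Between 68.7% and 74.6% of the features on each array were well above background. The tissue label was checked with 9 markers of hypothalamus and neurons, all above background in every comparison. Hcrt (orexin) gave a processed signal of 73600, 72000, 63100 and 69800 and Pmch (melanin-concentrating hormone) 58500, 60300, 56000 and 57500 on the control ZT10, bezafibrate ZT10, control ZT22 and bezafibrate ZT22 arrays. Pomc and Avp (vasopressin) in the same list were lower with bezafibrate, with ratios of -1.15 and -0.67 at ZT10, both past 1.5-fold, and -0.51 and -0.32 at ZT22. Markers of neighbouring tissue differed between the pools. Of 5 pituitary markers, which include the same Pomc value, all 5 were lower with bezafibrate at ZT10. Of 5 choroid plexus markers all 5 were higher with bezafibrate at ZT22. Pomc is thus counted in both lists, and its source in the pools was not tested. Levels below are processed signals divided by the 75th percentile of the same array, called scaled levels, and ratios are differences of their log2 values. Unless said otherwise, ± gives the error that the scanning software attaches to a ratio, in log2 units, and this covers neither mice nor pools. A difference of 0.32 log2 units, or 1 of 1.5-fold, serves as a mark of size in what follows.

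The ribosomal protein probes were bright. All 78 were well above background on all 4 arrays, none had a saturated spot and 56 were among the 500 brightest genes. Their mean processed signal had a median of 56860 scanner units and reached 226500, against a median of 324 over all genes. The dimmest was Rpl3l at 33.3 units, and the next dimmest stood at 1495. Since probes differ in how strongly they bind, these signals give no order of the mRNAs. For the other 77 genes the error of a ratio was close to 0.20, which comes from the 10% error that the software assigns to a bright spot.

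Ribosomal protein mRNAs kept nearly the same level in the 4 pools. The highest array exceeded the lowest by a median of 1.139-fold over the 78 genes, and 73 of them stayed within 0.32 log2 units, as did 74.1% of all genes and 93.7% of 591 other genes that were at least as bright as the 25th percentile of the set. Small offsets ran in 1 direction, however: 69 of the 78 had their highest scaled level in the bezafibrate ZT22 pool, where 33.5% of all genes had theirs. The control ZT10 pool held the lowest level of 50 of them, against 31.1% of all genes. Neither share was counted for the 591 other bright genes. Of those, 87.1% were higher at ZT22 than at ZT10 with bezafibrate, against 89.7% of the set. With bezafibrate over control at ZT22, 64.8% of them were higher, against 97.4% of the set. Only Rpl21, Rpl14 and Rpl3l moved by more than 0.25 log2 from their own mean on any array, as the plot of levels by array shows.

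**Figure D1:**
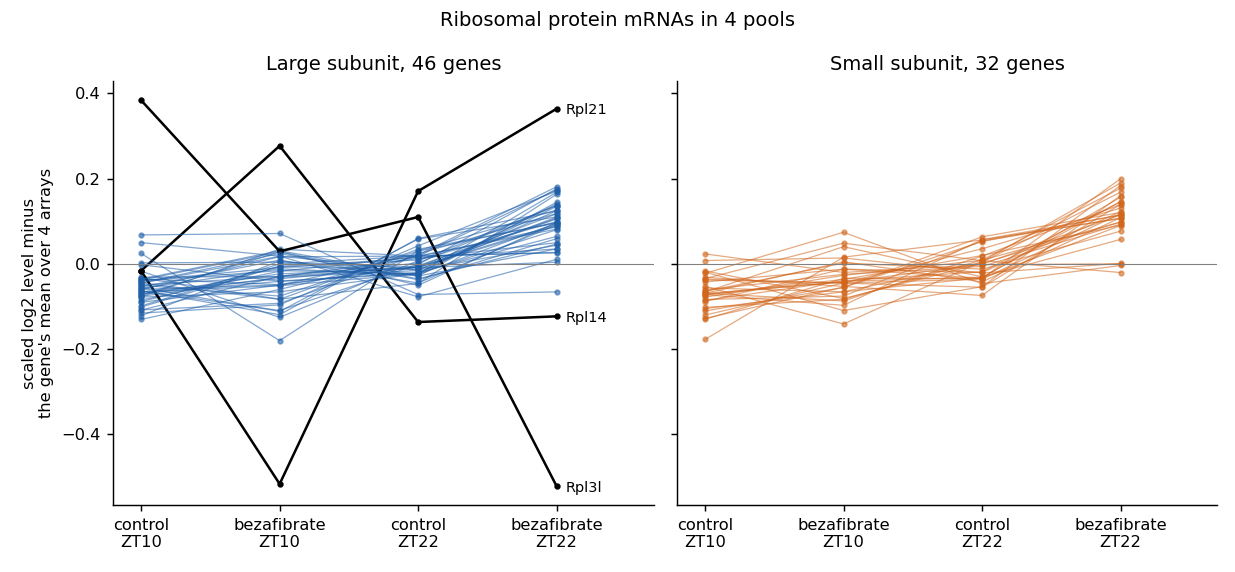
Scaled log2 level of each of 46 large subunit genes (left, blue) and 32 small subunit genes (right, orange) in the 4 pools, as the difference from the gene's own mean over the 4 arrays; each line is 1 gene and each point 1 array. Most lines lie close to 0 and end above it in the bezafibrate ZT22 pool, and the 3 genes in black, Rpl21, Rpl14 and Rpl3l, leave the bundle.

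Bezafibrate against control was compared first at ZT22, where the offset was clearest. There 76 of the 78 genes were higher with bezafibrate (9 without scaling), against 52.2% of the 16218 genes tested, with a median log2 ratio of 0.10 for the set and 0.01 for all genes. The middle 50% of the set ran from 0.06 to 0.15. Among the 591 other bright genes 64.8% were higher, with a median of 0.03. None of the 78 was higher by 0.32 log2 units or more (4.59% of all genes were), and Rpl3l alone was lower by as much (5.2%) and past 1.5-fold (3.2%). When probes were named by updated symbols the set held 81 genes, of which 2 were lower by as much and 2 passed 1.5-fold. Rps24, Rps23, Rps2, Rpl30 and Rpl3l exceeded the scanner error, 5 of 78 genes, where 17.3% of all genes did. The genes of an array share its scaling, so the 76 are not independent observations, and in a pool of tissue more cells of a type and more RNA per cell cannot be told apart.

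The direction of the ZT22 offset is relative to the other genes on the array. Before scaling, the processed signal was lower with bezafibrate at ZT22 for 67 of the 78 genes, and the median log2 ratio was -0.08 for them and -0.17 for all genes. The 75th percentile of that array was 893 units, against 1010 to 1050 on the other arrays. The median of the set exceeded that of all genes by 0.06 to 0.10 in each of the settings tried. Median centring and unscaled signals only shift whole arrays, so they left this difference at 0.09 by construction. With normexp and cyclic loess, which can change it, the difference was 0.07, and with quantile normalization it was 0.06.

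Rps24, a small subunit protein mutated in some families with Diamond-Blackfan anaemia, led the ratios at ZT22. Its scaled level was 55.1 in control ZT10, 51.7 in bezafibrate ZT10, 53.8 in control ZT22 and 63.4 in bezafibrate ZT22. The bezafibrate ZT22 pool was thus the highest and the other pools lay close together, with a diet ratio of 0.24 ± 0.20 at ZT22 and -0.09 ± 0.20 at ZT10. A pair of dimmer Rps24 probes, with 343.5 and 132.2 units, gave -0.16 and -0.05 at ZT22. Rps23, which lies at the decoding centre, had scaled levels of 204.0, 201.0, 198.0 and 232.9 in the same order of pools, a ratio of 0.23 ± 0.20 at ZT22. Rps2, at the mRNA entry channel, had 115.8, 123.8, 123.8 and 145.6, also 0.23 ± 0.20, and was highest in the same pool. Rpl30 (22.5, 21.7, 22.3 and 25.8) and Rps14 (171.3, 170.5, 169.3 and 193.7) completed the 5 highest, with ratios of 0.21 and 0.19. Of these 5 genes all except Rpl30 belong to the small subunit, and in each of the 5 the bezafibrate ZT22 pool stood above the others.

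At the lower end at ZT22, Rpsa, the laminin receptor that is also a small subunit protein, had scaled levels of 16.6, 17.6, 17.1 and 16.8 and a ratio of -0.03 ± 0.20. Rps6, the substrate of S6 kinases whose phosphorylation is read as mTORC1 activity, had 34.3, 33.2, 33.7 and 33.7, and its ratio was 0.00 ± 0.20. Rpl4 and Rpl15, both large subunit proteins, had ratios of 0.01 at ZT22. These 4 genes were flat between diets at ZT22, although the windows of Rps6 and Rpl15 carry long pyrimidine runs. Of the 34 matched genes with a run 33 were higher with bezafibrate at ZT22 (median 0.09), and of the 24 without one 23 were (median 0.10).

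**Figure D2:**
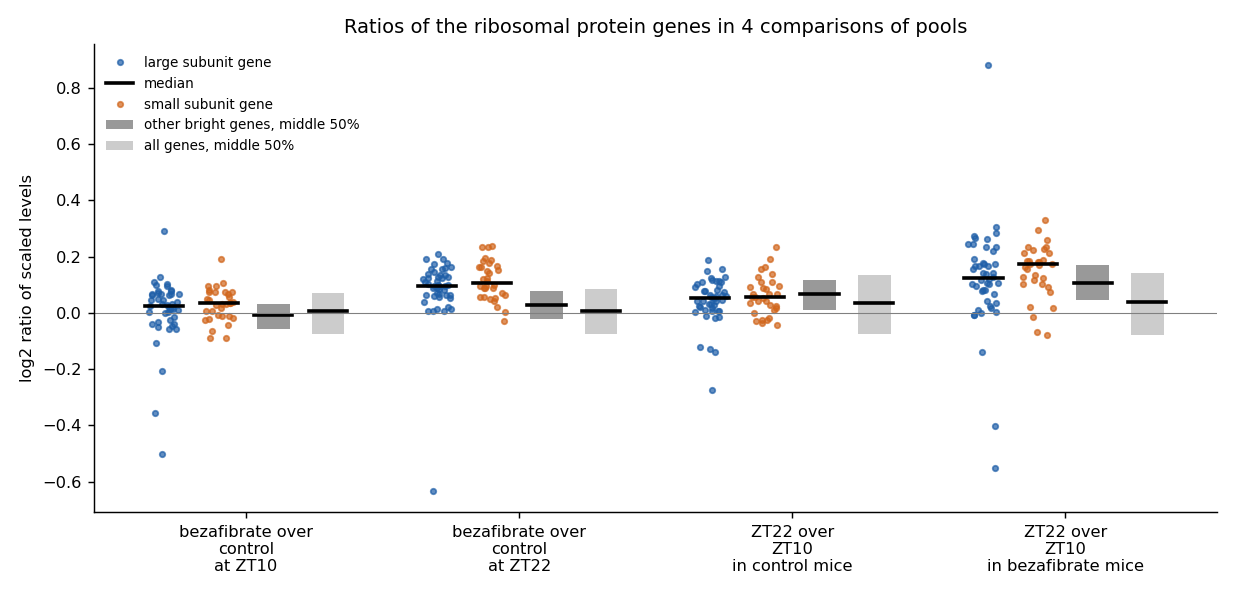
Log2 ratio of scaled levels in the 4 comparisons for the large subunit genes (blue points) and small subunit genes (orange points), 1 point per gene, with medians as black lines; bars span the middle 50% of 591 other bright genes (dark grey) and of all genes tested (light grey). The ribosomal protein points at ZT22 with bezafibrate over control lie above 0 for 76 of 78 genes (9 without scaling), while in the control time comparison their medians of 0.05 and 0.06 lie close to that of the other bright genes, 0.07.

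At ZT10 the same contrast was smaller. With bezafibrate 55 of the 78 genes were higher (9 in the authors' deposited table), against 52.7% of all 16130 genes tested, with a median of 0.03 for the set and 0.01 for all genes. The other bright genes had a median of -0.01. None was higher by 0.32 log2 units or more (3% of all genes), Rpl21 and Rpl3l were lower by as much (5%), and none passed 1.5-fold (2.46%). The scanner error was exceeded by Rpl14, Rpl21, Rpl3l and Rplp1 alone, 4 of 78, against 15% of all genes. The highest ratios were those of Rpl14 (0.29 ± 0.20), Rps19 (0.19), Rpl37 (0.13), Rpl15 (0.11) and Rps3 (0.11), and after Rpl21 and Rpl3l the lowest were Rplp1 (-0.20), Rpl10a (-0.11) and Rps24 (-0.09). In the authors' deposited table of ratios the median at ZT10 was -0.06 for the set and -0.08 for all genes.

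The diet ratio was greater at ZT22 than at ZT10 in 64 of the 78 genes, against 50.7% of all genes above background on the 4 arrays. The median difference was 0.08 for the set and 0.00 for all genes. Such shares were not counted for the other bright genes, whose median diet ratio was -0.01 at ZT10 and 0.03 at ZT22. With 1 pool per group this difference between times could not be tested. Higher with bezafibrate at both times were 54 of the 78, against 29.8% of all genes, and Rpl3l was the only gene of the set lower at both, where 24.8% of all genes were.

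Time of day was compared within each diet, and the ratios of these comparisons use the same 4 arrays. In control mice 64 of the 78 genes were higher at ZT22 than at ZT10 (median 0.05; 29 of 78 with cyclic loess), against 58.1% of all 16417 genes tested (median 0.03) and 79.2% of the other bright genes (median 0.07). No gene of the set was higher by 0.32 log2 units (7.55% of all genes), lower by as much (5.45%) or past 1.5-fold (4.62%). Rps19 and Rpl3l exceeded the scanner error, 2 of 78, where 24.2% of all genes did. This direction did not hold across scalings: 37 of the 78 were higher after quantile normalization and 29 after cyclic loess, where the median was -0.01. The highest ratios were those of Rps19 (0.23), Rps28 (0.19), Rpl21 (0.19), Rps27l (0.16) and Rpl35a (0.16), and the lowest, after Rpl3l, were Rpl4 (-0.14), Rpl3 (-0.13), Rpl14 (-0.12) and Rps23 (-0.04).

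In bezafibrate mice 70 of the 78 genes were higher at ZT22 than at ZT10 (median 0.14), against 59.2% of all 16020 genes tested (median 0.04) and 87.1% of the other bright genes (median 0.11); with quantile normalization the count was 45 and the median 0.01, and without scaling 11 were higher. Rpl21 and Rps27a were higher by 0.32 log2 units or more (7.21% of all genes), Rpl14 and Rpl3l lower by as much (4.94%), and Rpl21 alone passed 1.5-fold (3.63%). With updated symbols, 3 of 81 genes were lower by as much and 2 passed 1.5-fold. The scanner error was exceeded by 22 of the 78 and by 24.1% of all genes. Rps27a, a small subunit protein made as a fusion with ubiquitin, had scaled levels of 62.5, 58.8, 65.0 and 73.9 in control ZT10, bezafibrate ZT10, control ZT22 and bezafibrate ZT22. It was lowest in the bezafibrate ZT10 pool and highest in the bezafibrate ZT22 pool, a time ratio of 0.33 ± 0.20 with bezafibrate and 0.06 ± 0.20 with control diet. Rps24 (0.29) and the stalk proteins Rplp1 (0.31) and Rplp2 (0.29) were the other high genes, and Rpl4 (-0.14), Rps15 (-0.08) and Rpsa (-0.07) followed Rpl3l and Rpl14 at the low end.

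Large and small subunit genes had like ratios. The medians of the large and the small subunit genes were 0.03 and 0.03 for diet at ZT10, 0.10 and 0.11 for diet at ZT22, 0.05 and 0.06 for time in control mice and 0.12 and 0.17 for time in bezafibrate mice. The last pair differed most, by -0.05 for large minus small, which is less than the middle 50% of either subunit spanned (0.14 and 0.11). Among the 39 genes with another probe above background on all arrays, that probe gave a difference of 0.12 in the opposite direction.

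The genes were then described by place or role in the ribosome, in groups drawn up after their values had been seen. Of the whole set, 70.5% were higher with bezafibrate at ZT10 and 97.4% at ZT22. A group count near these shares repeats the set as a whole. The stalk proteins Rplp0, Rplp1 and Rplp2, with Rpl12 at the base of the stalk, recruit and activate the GTPases of translation. Of these 4 genes 1 was higher with bezafibrate at ZT10 and all 4 at ZT22 (median 0.13). Rplp1 had scaled levels of 232.7 in control ZT10, 201.9 in bezafibrate ZT10, 233.7 in control ZT22 and 249.7 in bezafibrate ZT22, so that the bezafibrate ZT10 pool was the low one. Rplp2 had 133.7, 129.5, 139.6 and 157.9 and was highest in the bezafibrate ZT22 pool.

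Rplp0, a stalk protein often used as a reference gene, offered a value from repeated spots, since 1 of its 3 probes was spotted 10 times. Of those spots 9 or 10 per array were kept, with mean processed signals of 5753 ± 166 (SD over 9 spots) in control ZT10, 5960 ± 201 (9 spots) in bezafibrate ZT10, 5704 ± 321 (10 spots) in control ZT22 and 5273 ± 141 (9 spots) in bezafibrate ZT22. After scaling, the diet ratio was -0.01 ± 0.02 (SE from spots) at ZT10 and 0.07 ± 0.03 at ZT22, and the time ratio was -0.01 ± 0.03 in control and 0.06 ± 0.02 in bezafibrate mice. The ranges of the spots overlap between all 4 pools once scaled. At each position kept on both ZT22 arrays, however, the scaled value was higher with bezafibrate. Unscaled, the mean was lowest on the bezafibrate ZT22 array, while the lowest single spot, at 4970, was on the control ZT22 array. That is the spot left out elsewhere, and the SD of 321 includes it. Both scaled ratios that use the control ZT22 array include this spot as well. It lowers the control ZT22 mean, which raises the diet ratio at ZT22 and lowers the time ratio in control mice. Neither ratio was recomputed over shared positions, and their errors do not pair spots by position. The size of that diet ratio and the sign of that time ratio are therefore not settled by this probe. The brightest Rplp0 probe gave -0.01, 0.10, 0.03 and 0.14 in the same 4 comparisons. The remaining probe, of 24800 units, gave 0.00, 0.22, -0.15 and 0.07. For time in control mice the 3 probes thus differ in direction. The spread over spots is that of 1 hybridization and says nothing of other mice.

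**Figure D3:**
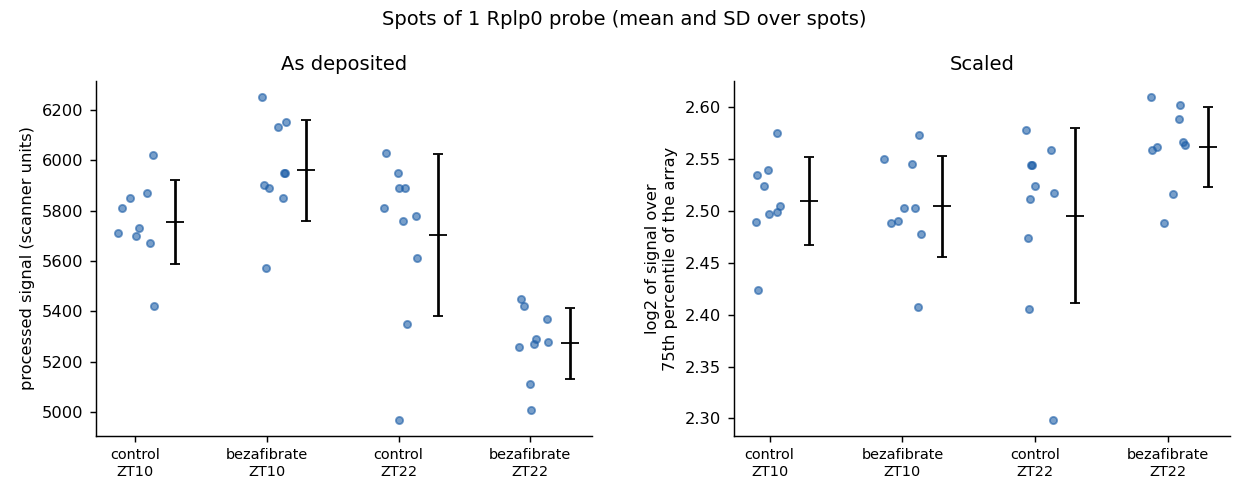
Spots of the Rplp0 probe that was spotted 10 times, as deposited in scanner units (left; the axis does not start at 0) and as log2 of the signal over the 75th percentile of the array (right), with mean and SD over the kept spots beside them. Bezafibrate ZT22 has the lowest deposited mean, 5273, and the highest scaled mean, 2.56.

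Rpl5 and Rpl11, which bind 5S rRNA and can hold the p53 regulator Mdm2 when ribosome assembly fails, were both higher with bezafibrate at ZT22. Rpl11 had scaled levels of 102.0, 102.9, 105.9 and 120.9 and a ratio of 0.19, and Rpl5 had 85.9, 87.8, 89.7 and 96.9 and a ratio of 0.11. A dimmer Rpl11 probe, of 263.5 units, gave -0.29 for diet at ZT22, so the probes of Rpl11 disagree in direction there. Of 14 measured ribosomal stress and p53 target genes 6 were higher at ZT22 with bezafibrate (median -0.02). The extremes among those were Gadd45a, a DNA damage response gene, at 0.52, and Phlda3, a p53-induced inhibitor of Akt, at -0.15. Gadd45a had a ratio of -0.48 at ZT10. Cdkn1a, the p53 target that encodes the cell cycle inhibitor p21, was higher with bezafibrate at both times, by 0.35 ± 0.06 at ZT10 and 0.42 ± 0.07 at ZT22. These errors are smaller than for most genes because repeated spots of its probe were averaged. The spots share 1 hybridization of 1 pool per group.

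Around the exit of the peptide tunnel, the 7 proteins Rpl17, Rpl19, Rpl23a, Rpl26, Rpl31, Rpl35 and Rpl39 had ratios between 0.04 and 0.12 at ZT22, all higher with bezafibrate. Rpl31 had scaled levels of 1.45, 1.39, 1.57 and 1.65, both ZT22 pools above both ZT10 pools. The 12 proteins placed in the head of the small subunit were likewise all higher at ZT22, from 0.04 (Rps15) to 0.19 (Rps12), and 8 of 12 at ZT10. In the whole set 97.4% were higher at ZT22 and 70.5% at ZT10, so these counts do not set either group apart. Of the 3 proteins at the mRNA entry, Rps2 and Rps3 (80.0, 86.1, 82.0 and 87.1) were higher with bezafibrate at both times, and Rps9 (24.8, 24.9, 24.3 and 24.6) was flat.

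Rps19, a small subunit head protein and the gene first linked to Diamond-Blackfan anaemia, had scaled levels of 31.0 in control ZT10, 35.4 in bezafibrate ZT10, 36.4 in control ZT22 and 37.7 in bezafibrate ZT22. The control ZT10 pool was the low one and the other pools were close. Another Rps19 probe, of 3340 units, gave -0.14 for time in control mice where the brightest gave 0.23, so the probes of Rps19 disagree in direction there.

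The X-linked genes Rpl10, Rpl36a, Rpl39 and Rps4x were higher with bezafibrate at ZT22 in 4 of 4, by 0.09 to 0.16, as were 97.4% of the whole set. Rpl36a was at 37.0, 37.4, 40.5 and 45.2, the highest in the bezafibrate ZT22 pool. Rpl10, which joins the large subunit late in its assembly, was at 36.9, 38.1, 38.5 and 42.4, and Rps4x at 74.7, 73.7, 79.3 and 86.2. Rpl3, at the peptidyl transferase centre, was at 87.9, 86.0, 80.5 and 85.6 and was lowest in the control ZT22 pool. Rpl13a, known for a role in translational silencing after interferon, was at 54.5, 55.6, 56.5 and 57.3, a narrow spread, and Rpl41, the smallest ribosomal protein, was at 97.6, 101.0, 102.0 and 110.4.

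Rpl21, Rpl14 and Rpl3l departed from the rest. Rpl21 had scaled levels of 7.14 in control ZT10, 5.05 in bezafibrate ZT10, 8.13 in control ZT22 and 9.29 in bezafibrate ZT22. The bezafibrate ZT10 pool was the low one, and the ratios were -0.50 ± 0.20 for diet at ZT10, 0.19 ± 0.20 for diet at ZT22, 0.19 ± 0.20 for time in control mice and 0.88 ± 0.20 for time in bezafibrate mice. Its probe carries a predicted transcript accession that the RefSeq gene table does not hold. The other Rpl21 probe, on a curated transcript but with 258.2 units on average, gave 0.11, -0.00, 0.13 and 0.01. A bright locus described as similar to L21 gave -0.01, 0.52, -0.40 and 0.13, so the 3 probes differ among themselves, and signal from near-identical copies cannot be assigned to a single gene by such probes.

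Rpl14, a large subunit protein with a single probe, had scaled levels of 2.10, 2.57, 1.93 and 1.95. It was highest in the bezafibrate ZT10 pool, with a diet ratio of 0.29 ± 0.20 at ZT10 and 0.01 ± 0.20 at ZT22, and a time ratio of -0.40 ± 0.20 in bezafibrate mice. Rpl3l, the paralog of Rpl3 known from heart and skeletal muscle, was near the lower end of the array's range, with processed signals that average 33.3 units. Its ratios were -0.35 ± 0.25 and -0.63 ± 0.28 for diet at ZT10 and ZT22 and -0.27 ± 0.24 and -0.55 ± 0.28 for time in control and bezafibrate mice. It was the only gene of the set that differed between diets by 0.32 log2 units or more in the same direction at both times, 1 of 78, where 0.993% of all genes were lower and 0.434% higher by as much. Rps27l, a p53-inducible paralog of Rps27, followed the bundle with 7.03, 7.31, 7.87 and 8.22.

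Other probes of the same genes were used as a check within the arrays. Of 52 further probes above background on all 4 arrays, for 39 genes, 8 differed by over 0.3 log2 from the brightest probe in some comparison. Of the 35 with at least 1000 units 1 did, the Rps19 probe above. The second-brightest probes were higher with bezafibrate at ZT22 for 33 of 39 genes, with a median of 0.09, and at ZT10 for 29 of 39, with a median of 0.04. Another 28 measured probes described as similar to a ribosomal protein, which can share sequence with the genes of the set, had medians of 0.06, 0.12, 0.05 and 0.15 in the 4 comparisons.

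Brightness was set against the ratio within the set. Across the 78 genes the correlation of the diet ratio at ZT22 with log2 signal was 0.67 (Pearson) and 0.33 (Spearman). The points share arrays and scaling and include Rpl3l, at once the dimmest and the lowest, so this is a description only. The dimmest 26 genes had a median ratio of 0.07 at ZT22, the middle 26 had 0.12 and the brightest 26 had 0.12. At ZT10 the order was the opposite, with 0.04, 0.03 and 0.01.

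Other genes of protein synthesis were set beside the ribosomal proteins. Of 16 TOP mRNAs that encode no ribosomal protein, such as elongation factors, 13 were higher with bezafibrate at ZT22 with a median of 0.10, from -0.02 (Eif4b, an initiation factor) to 0.23 (Gas5, a snoRNA host), and 12 of 16 at ZT10 with a median of 0.04. Of 35 initiation and release factors, which share some genes with that list, 22 were higher at ZT22 (median 0.03), from -0.13 (Eif4g1, the scaffold of the cap-binding complex) to 0.14 (Eif1a). Of 76 mitochondrial ribosomal proteins, which serve the separate ribosome of the organelle, 50 were higher at ZT22 (median 0.01), with Mrpl50 lowest at -0.58 and Mrps24 highest at 0.22. A dimmer Mrpl50 probe gave 0.05 at ZT22, so the low value rests on 1 probe. Of 50 ribosome biogenesis genes 26 were higher at ZT22 (median 0.00), from Pes1 (-0.24) to Imp4 (0.28), while in control mice Imp4 was at -0.63 for time. Imp4 was dim, with processed signals between 49.4 and 76.5 units. No gene of these 4 lists was higher by 0.32 log2 units at ZT22 with bezafibrate. Of 20 measured regulators and paralogs outside the rule, 11 were higher (median 0.02), from Mycn (-0.17), a driver of ribosome production, to Sesn1 (0.14), which restrains mTORC1. The probes of Mycn disagree in direction, since a dimmer one gave 0.22.

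Markers of other cells differed in the same pools. For bezafibrate over control at ZT22 the 5 choroid plexus markers were higher by a median of 1.63, and Ttr, the thyroxine carrier made by that epithelium, had processed signals of 58.8, 62.7, 110 and 1320 in control ZT10, bezafibrate ZT10, control ZT22 and bezafibrate ZT22. The 6 oligodendrocyte markers were all lower (median -0.29), from Mog (-0.51) to Mbp (-0.13), both myelin proteins, as were 4 of 4 meningeal markers (median -0.23). Of the 9 markers of hypothalamus and neurons 6 were higher (median 0.10, equal at this rounding to that of the ribosomal protein genes). For time in bezafibrate mice all 9 of those were higher (median 0.19), as were all 5 choroid plexus markers (median 1.88), and all 6 oligodendrocyte markers were lower (median -0.16). For time in control mice the choroid plexus median was 0.19, that of the oligodendrocyte markers 0.07 and that of the hypothalamus and neuron markers 0.05. At ZT10 the pituitary markers ran from Prl, prolactin, at -4.48 to Tshb at -0.31. The part of these tissue differences in the ribosomal protein ratios was not tested.

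A fit of diet and time over all 4 arrays, each averaged over the other factor (limma, Benjamini-Hochberg adjustment over 17545 genes), called no ribosomal protein gene and no gene at all at an adjusted p of 0.05 for either factor (0% of genes). The lowest adjusted p among the 78 was 0.8721 for diet and 0.4405 for time in that limma fit. At an unadjusted p under 0.05 it gave 1 of the 78 for diet (Rpl3l), where 5.39% of all genes passed, and 1 for time (Rpl3l), where 10.7% passed. The fitted diet effect was positive for 73 of the 78 with a median of 0.07, against 51.4% of all genes with a median of 0.00. The fitted time effect was positive for 69 with a median of 0.10, against 59.6% of all genes with a median of 0.04, and with quantile normalization it was positive for 44 of the 78 with a median of 0.02. The fit had 1 residual degree of freedom and takes diet to act alike at both times. Shares of positive effects were not counted for the other bright genes.

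**Figure D4:**
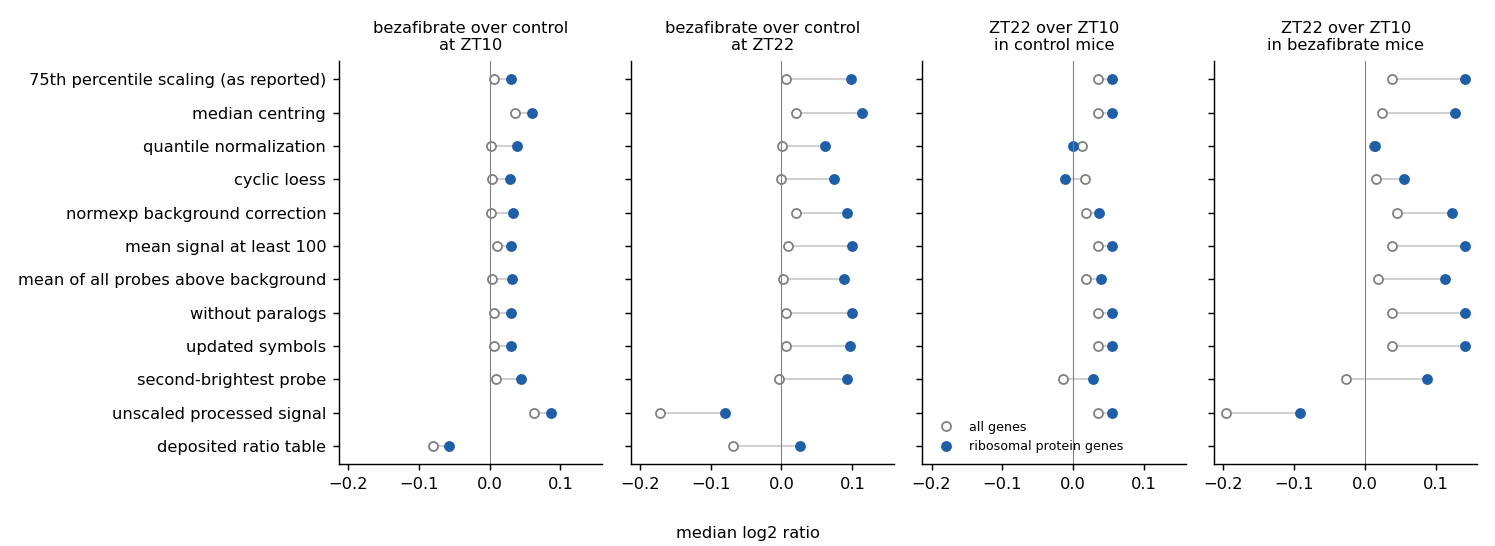
Median log2 ratio of the ribosomal protein genes (filled circles) and of all genes tested (open circles) in the 4 comparisons, under each processing setting on the vertical axis; the deposited ratios exist for the diet comparisons only. At ZT22 the filled circle for diet lies to the right of the open one by 0.06 to 0.10 in every setting shown, while in control mice the time medians change order under quantile normalization and cyclic loess. Median centring and unscaled signals move both circles together, so they cannot change the distance between them.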

How the data were processed

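The 4 one-colour (Cy3) whole mouse genome arrays were used, 1 for each diet and time. Per the file headers, the authors extracted the spots with Feature Extraction 9.5.1.1, and the deposited processed signal is a background-corrected intensity that is not normalized between arrays. Per the labels, the deposited value table is a ratio of bezafibrate over control. Which array was control or bezafibrate was read from how the arrays were named and checked against that table, whose columns are linear and follow the same ratios taken from the arrays (Pearson r across spots 0.997 at ZT10 and 0.994 at ZT22).

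The signal was taken to log2 and each array's 75th percentile was subtracted. Control and outlier spots were left out, spots of a probe were averaged, and each gene stood for its brightest probe. A gene entered a comparison when above background on both arrays. Marks of size were 1.25-fold (0.32 log2) and 1.5-fold. The genes and lists were chosen with earlier results of these data known, and the groups by role after the values were seen. Named genes were the 5 highest and 5 lowest per comparison, genes past 1.5-fold, or past 1.25-fold alike in both comparisons of a factor, and fixed members and paralogs (among them Rplp0, Rpsa, Rps6, Rpl5, Rpl11 and Rps19). From each related list up to 4 genes past 1.5-fold were named, otherwise its highest and lowest. Some other names were added after their values were seen, such as Gadd45a at ZT10, Rpl31 and Rps9.

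With 1 pool per group no pair of arrays was tested; their number limits the precision. Diet and time were fitted with limma 3.58.1 in R 4.3.3, tested on simulated data. The alternatives were median centring, quantile, cyclic loess, normexp (offset 50), a mean signal of at least 100, all probes, other symbols, no paralogs and the deposited ratios. Symbols and start sites came from RefSeq (GRCm38.p6). The array design names an older build, so no coordinates of probes were used. Single values of some genes in the set are not reported here.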

Additional observations from a re-analysis of the deposited data

Results flagged for a closer look

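Rpl21 was the 1 gene of the set whose diet ratios had opposite signs at ZT10 (-0.50) and ZT22 (0.19) and differed by at least 1.5-fold. That size was set after its values had been seen, the ZT22 value lies within the scanner error of 0.20, and the difference was not tested. The other Rpl21 probe gave 0.11 and -0.00.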

How the results depend on the processing

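Of 142 recomputed values, 127 stayed within the yardstick, which was 1.5 times for a count and the SD of spots of the same probe (0.0872 log2) for a median. That yardstick is as wide as the medians, so it hides some change: the diet median at ZT22 was 0.07 with cyclic loess (70 of 78 higher), 0.06 with quantile normalization (62 of 78) and 0.03 in the deposited ratios (52 of 78), and the time median in control mice was -0.01 with cyclic loess. Quantile normalization gave 37 of 78 higher for time in control mice, and 45 of 78 with a median of 0.0137 in bezafibrate mice; cyclic loess gave 29 of 78 in control mice. In the deposited ratios, 9 of 78 were higher at ZT10, with a median of -0.0574. Unscaled signals and second-brightest probes were added after seeing the data. Unscaled signals gave 9 of 78 higher for diet at ZT22 (median -0.0791) and 11 of 78 for time in bezafibrate mice, where the median turned to -0.0923; the array's lower 75th percentile accounts for this by construction. Second-brightest probes exist for 39 genes, so counts fell to 29, 33, 23 and 27, and large minus small for time in bezafibrate mice was 0.1213. No member passed the additive fit in any setting run. Leaving out an array was not run, since it leaves no residual degrees of freedom. No paired analysis was possible because each group has 1 pool. Ratios near 0.20 or below lie within the scanner error for a single gene.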
